A study of Arabidopsis thaliana with 39 samples.

Results

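LEUNIG (LUG) is a Groucho/Tup1-type transcriptional co-repressor, and the comparison described here is the transcriptome of *lug* mutant plants against their parental accession Landsberg erecta (Ler). It was chosen by label: the RNA-seq libraries labelled *lug* (n = 3) and Ler (n = 3), which are 6 of the 39 samples of a series on MORC proteins and chromatin in *Arabidopsis thaliana*. Both groups were labelled as floral tissue of plants 5 to 6 weeks old, grown in 16 h light and 8 h dark at 22 °C, with no treatment. The cultivar tag of both groups is Ler, whereas a growth text shared by the whole series says that plants were Col-0. The *lug* allele, the number of crosses to Ler and the number of plants behind a library were not given in the sources used here, so the p-values measure only the spread between these libraries, which may be technical. Other libraries of the series served only as reference points: wild-type (WT) Col-0 RNA-seq libraries at the 0 h start of a heat series (WT T0, n = 3), and a single ChIP-seq peak list of FLAG-tagged LUG in WT Col-0.

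LUG lacks a DNA-binding domain of its own. It is brought to chromatin by transcription factors, mostly through the adaptor SEUSS (SEU) and the SEU-like proteins SLK1, SLK2 and SLK3, and LEUNIG_HOMOLOG (LUH) shares part of its work. The complex is best known from flowers, where it works with APETALA2 (AP2) to keep the carpel and stamen identity gene AGAMOUS (AG) silent in the outer organs. *lug* mutants are also known for narrow leaves and for altered gynoecia, and the protein acts in leaf polarity and in seed coat mucilage release.

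The 6 libraries held 11411580 to 15862563 expected counts, and 20488 to 21583 genes had counts in a library. 2 libraries stood apart. *lug* replicate 3 correlated least with its own group, with a mean r of 0.922 across genes against 0.942 and 0.951 for the other *lug* libraries. Ler replicate 2 was the only Ler library in which genes reached 100 counts while all 5 other libraries had none, and it held 7 such genes. Each *lug* library correlated about as well with Ler as with its own group. The mean r with the Ler libraries was 0.953, 0.944 and 0.922 for *lug* replicates 1, 2 and 3. The Ler libraries had a mean r of 0.961 to 0.969 within their group and of 0.929 to 0.947 with *lug*. In these bulk samples, fewer cells of a type and less RNA per cell cannot be told apart.

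The LUG transcript was lower in *lug*. LUG (AT4G32551, chromosome 4, 15707425 to 15713662, TAIR10) measured 19.8, 21.4 and 20.8 TPM (the length-corrected share of a library's transcripts) in Ler and 7.47, 6.86 and 6.75 TPM in *lug*. All 3 *lug* libraries lay below all 3 Ler libraries, and the values within each group were close together. The log2 fold change was -1.40 ± 0.11 (SE, edgeR adjusted p = 0.00688), so the transcript was reduced but not absent. The call was lost without Ler replicate 1 (adjusted p = 0.069) and without Ler replicate 3 (adjusted p = 0.0567), while the fold change stayed between -1.43 and -1.35 on the log2 scale when any 1 library was left out. No other gene near LUG was called: within 1000 kb on each side, 406 genes were tested and LUG was the only one past the thresholds. Of the 3 nearest genes on each side, 4 were tested, and SHM3, AT4G32530, AT4G32560 and TIFY8 had log2 fold changes of 0.48, 0.04, -0.09 and 0.12.

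**Figure D1:**
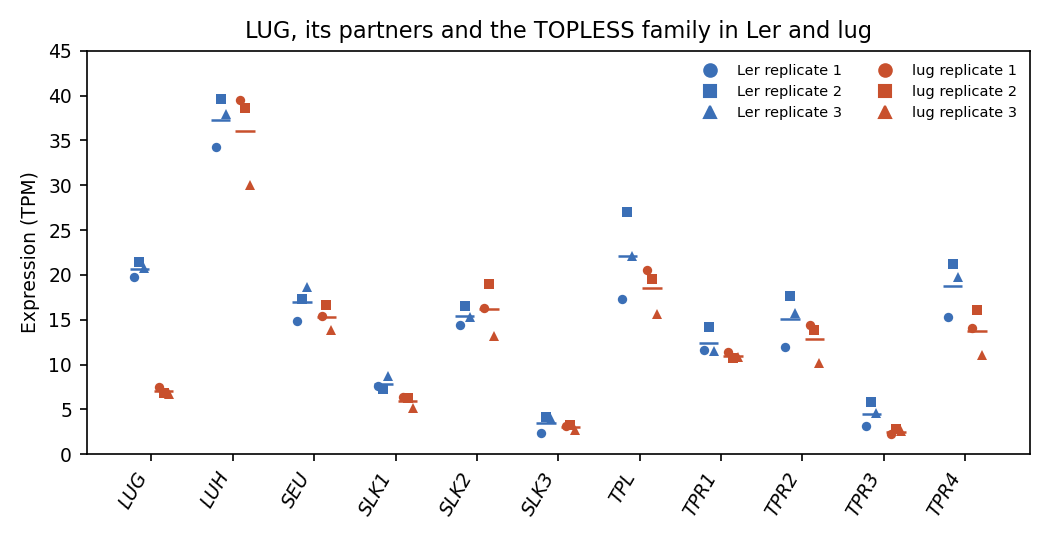
Expression in TPM (linear axis from 0) of LUG, its partner genes and the TOPLESS family, 1 point per library, with a horizontal line at the group mean. LUG is the only gene of the plot that passed the test, with Ler between 19.8 and 21.4 TPM and *lug* between 6.75 and 7.47 TPM.

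None of the partners of LUG was called. LUH had 34.2, 39.7 and 37.9 TPM in Ler and 39.5, 38.6 and 30.0 TPM in *lug*, and the groups overlapped (log2 fold change 0.08 ± 0.13, adjusted p = 0.926). SEU gave a log2 fold change of -0.01 ± 0.12 (adjusted p = 0.989). SLK1 was below Ler in all 3 *lug* libraries, at 6.41, 6.24 and 5.15 TPM against 7.57, 7.29 and 8.75 TPM, but did not pass the test (log2 fold change -0.28 ± 0.14, adjusted p = 0.758). TOPLESS (TPL) and its relatives form the other Groucho-type co-repressor family of plants, and none of its 5 members was called. TPR3 came nearest, with 3.12, 5.78 and 4.56 TPM in Ler against 2.20, 2.76 and 2.53 TPM in *lug* (log2 fold change -0.69 ± 0.22, adjusted p = 0.531).

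The tissue label was checked against its defining markers, and most of these were absent. APETALA1 (AP1), which specifies sepals and petals, lay between 0 and 0.08 TPM in the 6 libraries. APETALA3 (AP3) and PISTILLATA (PI), the pair that specifies petals and stamens, reached at most 0.65 and 2.03 TPM. Of 18 floral homeotic and identity genes, 6 had enough counts to be tested, 11 stayed under 1 TPM in every library and 3 had no counts at all. Of 20 tapetum and pollen wall genes 4 were tested and 12 had no counts in any library, and of 12 mature pollen genes 2 were tested. None of the 7 seed markers was tested. The 10 green tissue markers (small subunits of Rubisco, light-harvesting proteins and other photosynthetic genes) summed to 85820 to 99000 TPM in Ler and 96740 to 118400 TPM in *lug*, and RBCS1A alone had 29600 to 40635.5 TPM. This held in both groups, and the libraries are described below by their genotype and not as flowers.

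**Figure D2:**
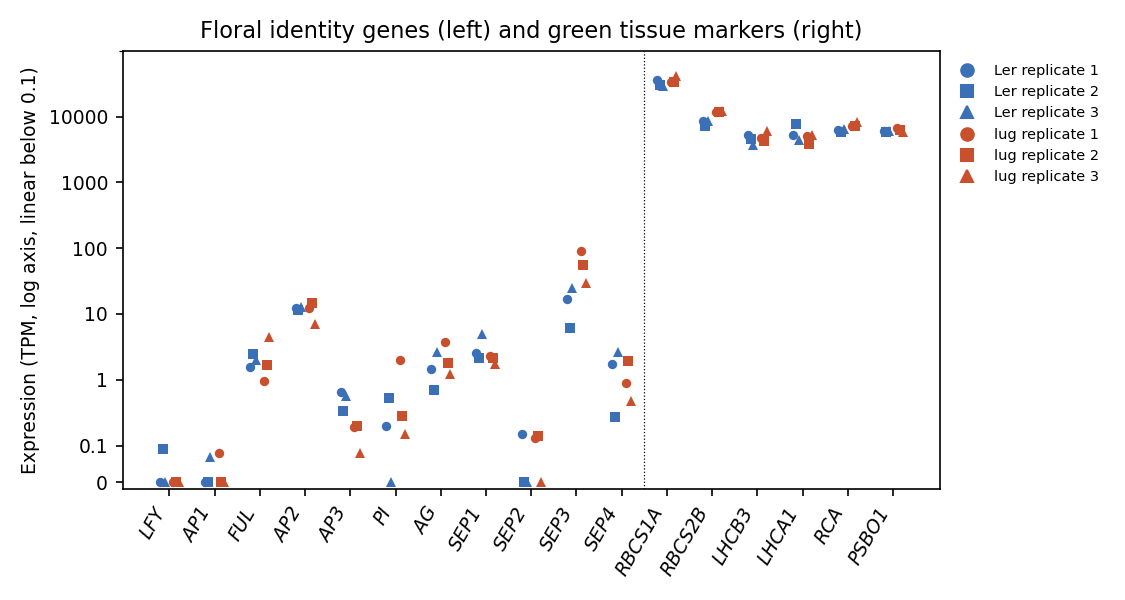
Expression in TPM (log axis, linear below 0.1) of 11 floral identity genes, left of the dotted line, and 6 green tissue markers, right of it, with 1 point per library. AP1 lies at 0 to 0.08 TPM and RBCS1A at 29600 to 40635.5 TPM in the same 6 libraries.

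Among the floral regulators that could be measured, none passed the edgeR test. AG, the classic target of LUG-mediated repression, had 1.44, 0.71 and 2.62 TPM in Ler and 3.77, 1.77 and 1.23 TPM in *lug*. The groups overlapped, and the log2 fold change was 0.59 ± 0.57 (adjusted p = 0.871). SEPALLATA3 (SEP3), a MADS-box cofactor of the floral organ identity proteins, had 16.9, 6.02 and 24.7 TPM in Ler and 90.8, 54.9 and 29.4 TPM in *lug*. Every *lug* library was above every Ler library, with the lowest *lug* value close to the highest Ler value, and the difference did not pass the adjusted threshold (log2 fold change 1.94 ± 0.58, unadjusted p = 0.0126, adjusted p = 0.455). Of 13 alternative fits, 1 called SEP3, which was DESeq2 (adjusted p = 0.0377). AP2, the DNA-binding partner of LUG at AG, gave a log2 fold change of 0.00 ± 0.24. The 6 tested floral identity genes had a median log2 fold change of 0.21, against 0.01 for all 17543 genes tested, and 1 of the 6 had all *lug* libraries above Ler, as did 6.57% of all genes.

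Across the genome, 62 genes were called between *lug* and Ler, at an adjusted p under 0.05 and a fold change over 2. 30 were higher in *lug*, which is 0.171% of the 17543 genes tested, and 32 were lower, which is 0.182%. All 62 had libraries that did not overlap between the groups, a property that 13% of all tested genes shared. 43 of the called genes had counts in both groups, and their absolute log2 fold changes ran from 1.29 to 9.08 with a median of 2.73. The other 19 had no counts in any library of one group, 7 of them in Ler and 12 in *lug*. 47 called genes were protein-coding (of 17110 tested), 8 were pseudogenes (of 62 tested), 4 were transcribed pseudogenes (of 73) and 3 were long non-coding RNAs (of 109).

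How many genes were called depended on single libraries. Without *lug* replicate 3, 73 genes were called higher and 62 lower, and 57 of the 62 original genes were among them. Without Ler replicate 1, 4 were higher and 2 lower. The calls numbered 8 and 16 without Ler replicate 2, 12 and 10 without Ler replicate 3, 10 and 21 without *lug* replicate 1, and 9 and 18 without *lug* replicate 2. DESeq2 called 106 genes higher and 98 lower, including all 62. When the 100 transposable element rows of the tables were left out of the fit, 23 genes were higher and 29 lower, and 52 of the 62 calls were kept.

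**Figure D3:**
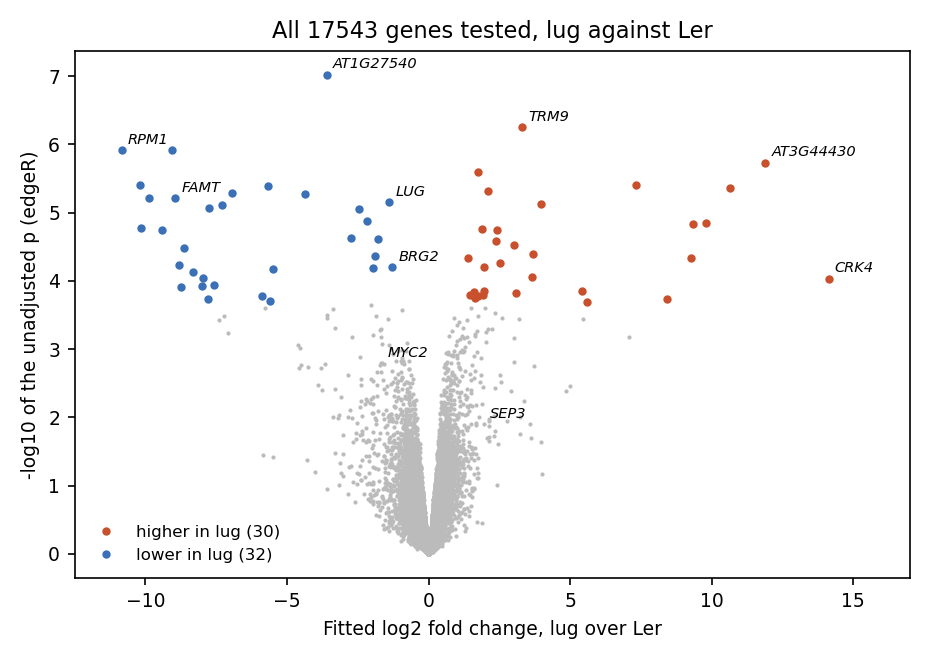
The fitted log2 fold change of *lug* over Ler (horizontal axis) against -log10 of the unadjusted p (vertical axis) for the 17543 genes tested, with the 30 genes called higher in red, the 32 called lower in blue and 10 genes named in the text labelled. The points at the far left and right include genes without counts in one group, such as CRK4 and RPM1, whose fitted values depend on the prior count and are no measure of the fold.

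The genes called higher with counts in both groups were of diverse function. TRM9, annotated as an RNA-binding family protein, had 25, 23 and 27 expected counts in Ler and 260.05, 208 and 264 in *lug*, and the groups were far apart (log2 fold change 3.29 ± 0.18, adjusted p = 0.0049). AT3G28200, a class III peroxidase family member, had 436, 445 and 573 counts in Ler and 1659, 1493 and 1623 in *lug* (log2 fold change 1.74 ± 0.12, adjusted p = 0.00641). ARAB-1, a GDSL-type lipase, had 77.6, 116.5 and 181 counts in Ler and 781, 604 and 553 in *lug* (log2 fold change 2.44 ± 0.23, adjusted p = 0.0106). In all 3 genes the lowest *lug* library was far above the highest Ler library. CYP77A5P, a cytochrome P450 pseudogene, and AT3G44716, an uncharacterised gene, rose by 1.88 and 2.39 on the log2 scale. Among the other genes called higher were SLAH3, a slow anion channel (log2 fold change 1.76 ± 0.24), and XTH33, a xyloglucan-modifying cell wall enzyme (1.93 ± 0.26), both with adjusted p just under the threshold (0.0432 and 0.0431).

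The genes called lower included a compact group on chromosome 1. AT1G27540, which encodes an F-box protein with a DUF295 domain (9565913 to 9567906), had the smallest adjusted p of all genes: 2725, 2872 and 3589 counts in Ler and 275, 212 and 264 in *lug* (log2 fold change -3.59 ± 0.15, adjusted p = 0.00169). AT1G27580, another DUF295 F-box gene nearby, had 575, 638 and 608 counts in Ler and 2.78, 0 and 0 in *lug* (log2 fold change -9.08 ± 0.57, adjusted p = 0.00535). The size of this fold rests on few counts in *lug*, and it ran from -12.3 to -5.73 on the log2 scale across the alternative fits. AT1G27570, a phosphatidylinositol kinase family gene that lies between AT1G27540 and AT1G27580, had 38, 72 and 51 counts in Ler and none in *lug*. The 2 F-box genes had counts that were not whole, so reads were shared with other loci, and the split of reads between the copies is uncertain.

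FAMT, a farnesoic acid methyltransferase, had 1177, 882 and 1751 counts in Ler and 0, 7 and 0 in *lug* (log2 fold change -8.96 ± 0.72, adjusted p = 0.00644). CYP71A25, a cytochrome P450, had 208, 144 and 359 counts in Ler and 4, 2 and 7 in *lug* (log2 fold change -5.67 ± 0.43, adjusted p = 0.00644). Both were near 0 in all *lug* libraries, so the size of their folds rests on few counts. Across the alternative fits the log2 fold change ran from -13.3 to -6.42 for FAMT and from -6.16 to -3.50 for CYP71A25. ETP1, an F-box protein that targets the ethylene signalling protein EIN2, retained more of its expression, with 447, 437 and 553 counts in Ler and 111, 64 and 84 in *lug* (log2 fold change -2.46 ± 0.21, adjusted p = 0.00708). The plastid phosphate transporter gene PHT4;5 fell by 2.18 on the log2 scale and the strictosidine synthase family gene SS3 by 2.73.

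Immune receptor and receptor-type genes were found in both directions. Of 398 tested genes annotated as disease resistance, receptor-like or leucine-rich repeat proteins, 4 were higher and 3 lower, or 1.76%, against 0.353% of all tested genes. This grouping was made after the called genes were seen and carries no test. CRK4, a cysteine-rich receptor-like kinase (AT3G45860, chromosome 3, 16863088 to 16866261), was listed at 0 in all Ler libraries and had 2566, 3100 and 895 counts in *lug*, at least 2234-fold higher against a floor of 3 counts over the group. RLP33, a receptor-like protein, had 12, 8 and 8 counts in Ler and 147, 170 and 127 in *lug* (log2 fold change 3.97 ± 0.33, adjusted p = 0.00688). RPM1, the receptor that recognises the *Pseudomonas* effectors AvrRpm1 and AvrB (AT3G07040, chromosome 3, 2225855 to 2229555), went the opposite way, with 188, 222 and 286 counts in Ler and none in any *lug* library, at least 227-fold lower. The TIR-type resistance gene AT1G72840 had 55, 63 and 106 counts in Ler and 1, 0 and 0 in *lug*, and the leucine-rich repeat kinase gene AT3G47580 had 175, 216 and 380 against 0, 3 and 0. None of 12 genes of salicylic acid immunity was called, and their median log2 fold change was 0.09, or -0.61 without *lug* replicate 2.

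The called genes were unevenly placed on the chromosomes. On chromosome 3, 35 of 3486 tested genes were called (1%), and on chromosome 1, 17 of 4622 (0.368%). Chromosomes 2, 4 and 5 had 3 of 2619, 2 of 2636 and 5 of 4058 called genes (0.115%, 0.0759% and 0.123%). Taken as a pair, which was done after these counts were seen, chromosomes 1 and 3 had 52 called genes of 8108 (0.641%) and the other chromosomes 10 of 9313 (0.107%), a ratio of 5.99. Genes were called in both directions on each of the pair: 6 higher and 11 lower on chromosome 1, and 18 higher and 17 lower on chromosome 3. The mutated gene itself is on chromosome 4, where the only other called gene was ATPMEPCRB, a pectin methylesterase.

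The unevenness was also present without the adjusted threshold. The share of genes that differed over 2-fold with no overlap between groups was 4.68% on chromosome 3 and 2.44% on chromosome 1, and 1.15%, 1.21% and 1.11% on chromosomes 2, 4 and 5. With DESeq2 the ratio of the percentages called on the pair and on the other chromosomes was 3.63, and without *lug* replicate 3 it was 5.91. Some called genes were immediate neighbours. AT3G61010 and AT3G61020 are adjacent and are transcribed away from each other. They had 230, 194 and 169 against 0 counts, and 77, 67 and 73 against 0, 0 and 1 counts, in *lug* and Ler.

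**Figure D4:**
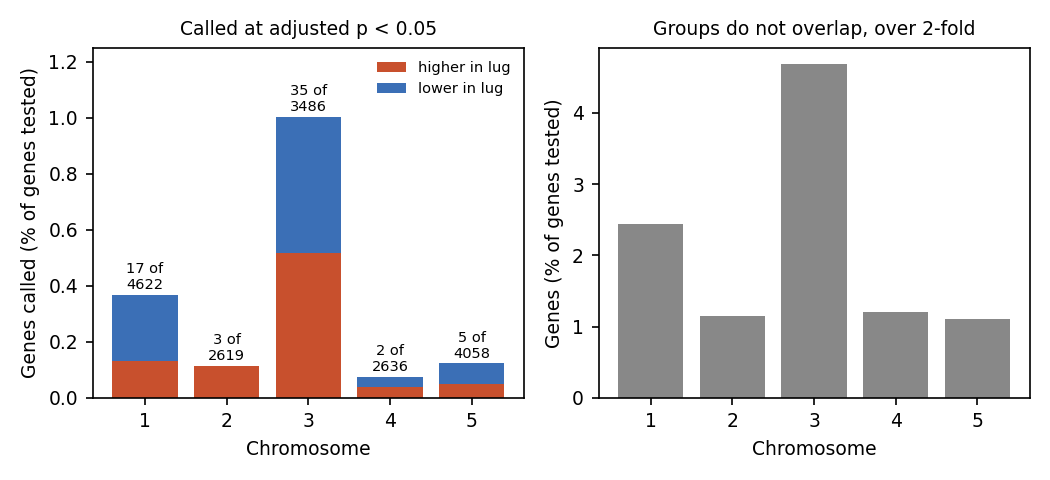
Left, the percentage of tested genes called in *lug* against Ler on each chromosome, split by direction, with the number called of the number tested above each bar. Right, the percentage of tested genes whose groups differed over 2-fold and did not overlap: chromosomes 3 (4.68%) and 1 (2.44%) stand above the others (1.11% to 1.21%).

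Some genes were on in every library of one group and off in the other. With at least 10 expected counts in every library of one group and 0 in every library of the other, 9 genes were on in *lug* and off in Ler, and 16 were on in Ler and off in *lug*. Of the 9, 5 were on chromosome 3 and 2 on chromosome 1. Of the 16, 8 were on chromosome 3, 7 on chromosome 1 and 1 on chromosome 5. Beside CRK4, the genes on in *lug* were led by AT3G44430, an uncharacterised protein gene with 397, 445 and 580 counts (at least 484-fold higher), and AT3G61010, a ferritin-like family gene (at least 202-fold higher). The SADHU1-2 retroposon had 85.0, 65.2 and 89.5 counts in *lug* and none in Ler (at least 81.6-fold higher).

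The genes off in *lug* were led by RPM1, followed by AT3G44070, a glycosyl hydrolase family 35 gene with 115, 130 and 199 counts in Ler (at least 145-fold lower), and AT1G63540, a hydroxyproline-rich glycoprotein family gene with 132, 96 and 210 counts in Ler (at least 143-fold lower). SADHU6-1, a retroposon copy of the same family as SADHU1-2, had 114, 106 and 135.5 counts in Ler and none in *lug*. When 1 count was allowed in the silent group, the numbers became 11 and 23 genes. Other genes with no counts in one group and high means in the other rested on few libraries. AT4G34881 had 193, 155 and 0 counts in *lug* and AT4G38932 had 132, 111 and 0, whereas DFR, JAL22 and AT4G16260, with no counts in *lug*, had 616, 579 and 630 counts in Ler replicate 2 and none in the other Ler libraries. These 5 genes were not tested.

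**Figure D5:**
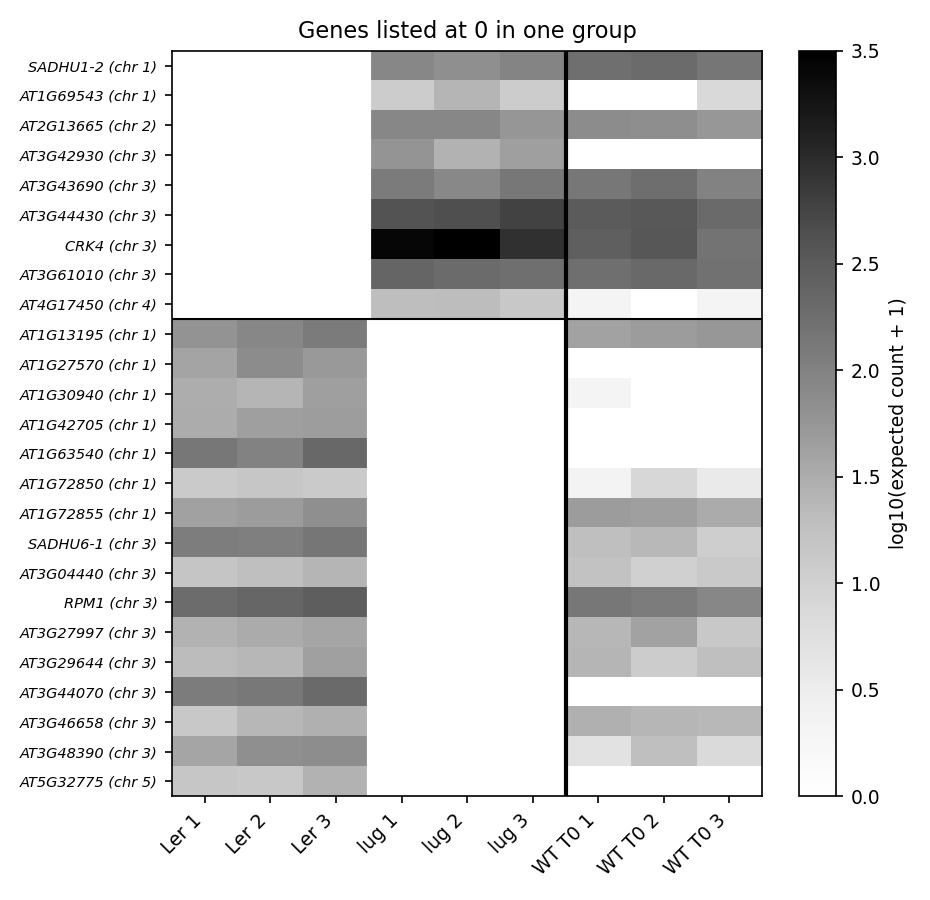
Expected counts, as log10(count + 1) on a grey scale, of the genes with 0 counts in one group and at least 10 in every library of the other. Columns are the Ler, *lug* and WT (Col-0) T0 libraries; the black horizontal line separates the 9 genes on in *lug* from the 16 genes on in Ler.

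The WT Col-0 libraries gave a reference for these genes, although their table was quantified separately and levels cannot be compared with it. Of the 9 genes on in *lug* and off in Ler, 6 had counts in all 3 WT T0 libraries and 1 had none in any. CRK4 had 275, 359 and 150 counts in WT T0, and AT3G44430 had 308, 340 and 199. Of the 16 genes off in *lug*, 10 had counts in all 3 WT T0 libraries, among them RPM1 with 134, 116 and 86, and 5 had none, among them AT1G63540 and AT3G44070.

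Over all genes that separated Ler from WT T0, the *lug* libraries shared most on and off patterns with Ler. WT T0 was quantified on another reference, and its tissue was not checked against that of the Ler and *lug* libraries. Accession, tissue and quantification therefore cannot be told apart in these patterns. There were 105 genes at 0 in every Ler library and with at least 10 counts in every WT T0 library. Of these, 78 were also at 0 in every *lug* library, and 8 had 3 or more counts in each *lug* library. Likewise 68 genes were at 0 in Col-0 and on in every Ler library. Of these, 48 had at least 3 counts in each *lug* library and 5 were at 0 in all of them. These 5 and 6 of the 8 are among the genes just described, which were picked for differing between *lug* and Ler. The *lug* mutation and any other difference between the *lug* line and the Ler stock cannot be told apart in this design.

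LUG was the 1 called gene among the pathways surveyed. 23 gene lists held 265 genes, of which 167 had enough counts to be tested, and 22 lists had no called member. With 0.353% of all genes called, few calls would fall in lists of this size, so the count says little about the pathways. DESeq2 called 7 list genes: LUG, SEP3, MYC2, VSP1, VGD1, CHI and AOP3. Among organ polarity genes, 15 of 18 were tested and the median log2 fold change was -0.08. AS1, a MYB protein that represses meristem genes in leaves, had 15.6, 22.7 and 22.1 TPM in Ler and 12.4, 11.4 and 7.25 TPM in *lug*, without overlap, but it did not pass the test (log2 fold change -0.83 ± 0.20, adjusted p = 0.301). The carpel, style and ovule genes had a median of -0.28 over 10 tested, with NGA1, a B3-domain regulator of style and leaf shape, at -0.68 ± 0.19 (adjusted p = 0.379). The 2 meristem and boundary genes tested, CLV1 and PTL, had log2 fold changes of -0.39 and -1.76 (adjusted p = 0.614 and 0.558). The median was 0.43 over 4 tapetum and pollen wall genes, -0.81 over 3 meiosis genes, -0.14 over 2 stamen maturation genes and -1.67 over 2 mature pollen genes. These small lists rested on single libraries: the tapetum median was -0.07 without *lug* replicate 3, the meiosis median -0.13 without Ler replicate 2 and the mature pollen median -2.73 without *lug* replicate 1.

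By number, the jasmonate list had the most members at an unadjusted p under 0.05. By share, the meristem and boundary list did, with 2 of 2 tested. 12 of 15 jasmonate genes were tested, 11 of them had a negative log2 fold change, the median was -0.79 and 3 had an unadjusted p under 0.05. That unadjusted threshold was passed in the negative direction by 3.32% of all genes, and 6.45% of all genes had every *lug* library below Ler, as had 3 of the 12. MYC2, the main transcription factor of jasmonate responses, had 14.98, 9.79 and 11.9 TPM in Ler and 3.85, 4.97 and 2.02 TPM in *lug*, with no overlap (log2 fold change -1.66 ± 0.33, adjusted p = 0.175). VSP1, a jasmonate-induced storage protein gene, had 4.45, 13.2 and 1.16 TPM in Ler against 0.45, 0.48 and 0.85 TPM in *lug* (log2 fold change -3.17 ± 0.88, adjusted p = 0.403). LOX2, a plastid lipoxygenase at the start of jasmonate synthesis, overlapped between the groups (log2 fold change 0.05 ± 0.51). The lowest value of AOC2, OPR3 and JAZ1 was that of *lug* replicate 3 in each case, the library that stood apart. Without it the median of the list was -0.43, and without *lug* replicate 2 it was -1.17.

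Other lists had values close to those of all genes or widely spread libraries. The 10 circadian clock genes tested had a median log2 fold change of 0.05, the 12 gibberellin genes 0.18, the 13 auxin genes -0.18, the 6 heat shock genes 0.09 and the 6 mucilage and pectin enzymes -0.04. All 10 tested cell division genes had negative values (median -0.53), and all 10 were highest in Ler replicate 2. Without that library the median was 0.09, and without *lug* replicate 3 it was -1.27. The 5 flavonoid genes had a median of -0.52, which was 0.12 without Ler replicate 2 and -1.24 without *lug* replicate 3, and chalcone isomerase (CHI) had 27.2, 36.1 and 36.9 TPM in Ler against 9.76, 17.2 and 9.27 TPM in *lug* (log2 fold change -1.34 ± 0.24, adjusted p = 0.139). The aliphatic glucosinolate genes had a median of -0.65 over 9 tested, which was -1.32 without *lug* replicate 2 and -0.19 without *lug* replicate 3. AOP3, a side-chain modifying enzyme of that pathway, had 480, 182 and 566 TPM in Ler against 134, 115 and 42.4 TPM in *lug* (log2 fold change -1.99 ± 0.55, adjusted p = 0.392). The green tissue markers had a median of 0.29 (0.10 without *lug* replicate 3), and none was called. In 3 of 10 all *lug* libraries were above Ler, as in 6.57% of all genes. Among these 3 was RBCS2B (log2 fold change 0.69 ± 0.18, adjusted p = 0.338).

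Of 10 flowering time genes 7 were tested, with a median of -0.34. FLC, the MADS-box repressor of flowering, had 1.61, 1.28 and 1.85 TPM in Ler and 0.34, 0.57 and 0 TPM in *lug* (log2 fold change -2.32 ± 0.78, adjusted p = 0.558). FT, the mobile flowering signal, had 3.28, 2.54 and 7.65 TPM in Ler and 2.02, 2.27 and 0.10 TPM in *lug* (log2 fold change -1.55 ± 0.83, adjusted p = 0.768). The groups did not overlap in either gene, and neither difference passed the test.

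Genes with LUG bound at the promoter in Col-0 were compared with all genes. The single LUG ChIP-seq list in WT held 2721 peaks, and 1168 genes had a peak summit from 1000 bp upstream to 200 bp downstream of their start. 906 of them were tested: none was called higher and 1 was called lower (0.11%, against 0.353% of all genes in either direction). Their median log2 fold change was -0.04, and 389 of the 906 were above 0. At an unadjusted p under 0.05, 31 of the 906 were higher and 45 lower, against 687 and 582 of all 17543 genes (3.92% and 3.32%). More were thus lower than higher in the list, and more were higher than lower among all genes. Of the 95 genes that the study listed as LUG-regulated, 80 were tested and 1 was called, with a median of -0.04. Without adjustment, p was under 0.05 for 11 of the 80 in the higher and 13 in the lower direction. Both shares were above those of all genes (3.92% and 3.32%). That list was chosen with these same libraries and is not independent of them. Of 424 genes listed near MORC7A sites (MORC7 binding regions in accessible chromatin outside RNA-directed DNA methylation), 325 were tested, none was called and the median was -0.01. At an unadjusted p under 0.05, 19 of the 325 were higher and 15 lower.

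The called gene with a LUG promoter peak was BRG2 (AT1G79110, chromosome 1), a RING-type E3 ligase related to BOI, which is also in the list of 95. BRG2 had 259, 266 and 393 counts in Ler and 111, 133 and 120 in *lug*, with no overlap (log2 fold change -1.29 ± 0.15, adjusted p = 0.0237). The call was lost in 5 of the 6 fits that left out a library (adjusted p from 0.0578 to 0.159) and kept without *lug* replicate 3. Its summit lay 657 bp upstream of the gene's start, and the peak ranked 1580 of 2721 by -log10 q (5.61). The peak lay at chr1:29758223-29758451, from 807 to 579 bp before the start, in sequence outside any annotated gene. It is shown because it is the only LUG peak in such a promoter window of a called gene, on the strand of the gene (TAIR10, from RefSeq), with capitals marking the motif matches.
BRG2 LUG peak: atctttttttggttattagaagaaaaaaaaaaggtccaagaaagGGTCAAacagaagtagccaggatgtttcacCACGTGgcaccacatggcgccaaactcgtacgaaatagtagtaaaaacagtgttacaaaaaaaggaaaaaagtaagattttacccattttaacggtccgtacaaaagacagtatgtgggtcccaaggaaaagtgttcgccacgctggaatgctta
4 motifs were searched on both strands. The G-box CACGTG, bound by bHLH and bZIP factors, was found once, and so was the W-box spelling TTGACC, bound by WRKY factors, here on the opposite strand and read as its reverse complement. The auxin response element TGTCTC and the element TATCCA were not in the window. Of 37897 windows of the same length and the same distance before the start of an annotated gene, 2.84% held the G-box, 9.05% this W-box spelling, 11.4% TGTCTC and 12.2% TATCCA.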

How the data were processed

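The authors aligned reads of stranded mRNA libraries to TAIR10 with Bowtie2 2.1.0 and quantified them with RSEM. The deposited tables give expected counts and TPM per gene and per transposable element. The deposited LUG peak list gives a −log10 q-value per MACS2 peak. Expected counts were rounded, and the 3 Ler and 3 *lug* libraries were fitted alone with edgeR 4.0.16 (quasi-likelihood, TMM, filterByExpr) on R 4.3.3. 17543 genes and 100 elements passed the filter on low counts, and p-values were adjusted by Benjamini-Hochberg over all of them. Elements (31188 of the rows) were left out of the gene results. TPM are relative to gene length and library total. Genes with no counts in one group have a fold bound against 3 counts over that group. The SE come from the edgeR fit and include the spread between libraries, whereas the floors cover counting only. The tested genes, lists and tests were chosen with earlier results of these data known. Named genes are list members, the 12 genes called in each direction with the smallest adjusted p and no overlap, the 6 with the largest mean among genes at 0 in the other group, called listed genes with a LUG peak, and the 3 neighbours of LUG on each side. Other genes named were chosen after their values were seen. Across genes, same-numbered libraries did not deviate together, so no pairing was used, although 3 libraries in a group cannot exclude it. Of 33602 gene rows, 32835 matched RefSeq's TAIR10.1 annotation, whose nuclear coordinates are those of TAIR10. Alternatives were DESeq2 1.42.0, limma 3.58.1 on log2(TPM + 1), other size factors, no filter, gene rows only, no organelle genes, a replicate block and leaving out each library.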

Additional observations from a re-analysis of the deposited data

Results flagged for a closer look

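Signal lay outside the gene rows. Of the 100 transposable element rows tested in the same fit, 7 were called higher in *lug* and 4 lower. The counts of 3 called genes (AT3G43690, SADHU6-1 and SADHU3-2) were identical to those of an element row. The gene and the element of each pair therefore cannot be told apart and are not separate signals.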

How the results depend on the processing

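The counts of genes called higher and lower (30 and 32) were 106 and 98 with DESeq2, 201 and 226 at an unadjusted p with the fold limit, and 0 and 0 with the replicate block, and they ranged from 4 to 73 and from 2 to 62 when a library was left out. Same-numbered libraries had correlations of their deviations of -0.25, -0.01 and -0.51, and none correlated best with its own number. No pairing by number was therefore used, but with so few libraries in a group these values cannot exclude it. With the block, LUG was at -1.40 (adjusted p = 0.268). With log2(TPM + 1), where the median of all genes shifted from 0.01 to -0.12, the medians were -0.18 for LUG promoter peak genes, -0.15 for MORC7A genes and -0.19 for the listed LUG-regulated genes. Leaving out a library, they ranged from -0.103 to -0.018, from -0.068 to 0.034 and from -0.195 to 0.014, and LUG from -1.43 to -1.35. The percentage called on chromosomes 1 and 3 over that on the others (5.99) was 2.54 at an unadjusted p and, in alternatives chosen after seeing the data, 3.63 with DESeq2 and 5.91 without *lug* replicate 3. At a minimum of 30 counts, 3 genes at 0 in *lug* and on in Col-0 were on in Ler, 17 genes at 0 in Col-0 and on in Ler were on in *lug*, and 19 at 0 in Col-0 and on in *lug* were on in Ler, in place of 7, 48 and 42. Of 26 named called genes, all 26 kept their call with DESeq2, other size factors, no filter, gene rows only, log2(TPM + 1) and without *lug* replicate 3, 6 without Ler replicate 1, 19 or 20 without each of the other libraries and none with the block.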

Other observations

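Ler replicate 2 differed from the other 5 libraries in genes of flavonoid synthesis. LDOX, which makes coloured anthocyanidins, had 40.4 TPM in Ler replicate 2 and at most 0.13 TPM in the other libraries, and F3'H had 11.1 TPM against at most 0.54 TPM. CHS, the entry enzyme of the pathway, had 98.1 TPM there, and the next value was 46.5 TPM in *lug* replicate 3. The salicylic acid marker PR1 varied within both groups, with 65.6, 1218 and 7.45 TPM in Ler and 27.2, 564 and 0.24 TPM in *lug*. PR2 had 34.1, 411 and 143 TPM in Ler and 44.0, 338 and 2.33 TPM in *lug*. Both PR1 and PR2 were highest in replicate 2 of each group.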
